A study of Mus musculus with 20 samples.

Results

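Interferon-stimulated genes are the transcripts that cells switch on when interferon binds its receptor. The 34 genes described here were taken by symbol from a fixed list, and 32 of them were measured, out of 19505 genes on the array. Gbp5 and Ifi44 were not analysed here. A gene with more than 1 probe was read from its brightest probe.

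Total RNA of mouse samples labelled adipocytes was hybridised to 20 expression arrays. There were 5 arrays in each of 4 groups named by depot and genotype: g KO, g WT, sc KO and sc WT. KO stands for Olfm2 knockout and WT for wild type, and Olfm2 encodes olfactomedin 2, a secreted glycoprotein. The labels call the cells adipocytes obtained from fat tissue and matured in vitro, and they give no age, sex, strain, diet or treatment and do not spell out sc and g. They also do not say in which cells Olfm2 was deleted, or whether the 5 samples of a group came from separate animals or cultures, so the p-values reflect sample-to-sample spread only, which may be technical. The labels name no interferon treatment. The design text of the series names PKP2 for the sc samples, whereas every sample label names Olfm2, and the labels were followed.

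As background, virus-derived nucleic acids are recognised by sensors such as RIG-I (Ddx58) and MDA5 (Ifih1), which lead to the release of type I interferon. Interferon bound to its receptor activates JAK kinases, and the complex ISGF3, of which STAT2 and IRF9 are subunits, then binds interferon-stimulated response elements in the promoters of its targets. Many of those targets encode antiviral proteins, and others, such as Irf7 and Usp18, raise or restrain the response itself. In adipose tissue, interferon signals reach adipocytes, endothelial cells and resident immune cells alike.

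The core of the response element, GAAA followed by any 2 bases and GAAA again, was searched on both strands and lay in the window from 250 bases before to 50 bases after the start in 15 of the 23 measured members with an entry in the RefSeq promoter table (65.2%). The same letters lay in the windows of 3.99% of all 27025 genes in the table (3.44% of 32851 windows), and in 38 of 111 other interferon pathway genes (34.2%). The STAT element TTCNNNGAA, which can overlap that core by a few letters, was searched in the same way and lay in 5 of the 23 members (21.7%), in 24 of 111 other pathway genes (21.6%) and in 9.55% of all genes in the table. A match of letters is a description and does not show that a factor binds. The promoters of Oas1a, Oasl2 and Trim30a are shown because the results below turn on these genes. Each run is the 250 bases before the RefSeq start on the gene's own strand, 5′ to 3′, in build GRCm38.p6, and capitals mark the core or its reverse complement. Oas1a lies at chr5:120907526-120907775 (minus strand) and holds overlapping copies that begin at positions -20 and -14 from the start. Oasl2 lies at chr5:114896684-114896933 (plus strand) and holds no copy of these letters. Trim30a lies at chr7:104465194-104465443 (minus strand, the first of its entries) and holds a copy that begins at position -36. Its second entry, at chr7:104446126-104446375 (minus strand, not shown), holds no copy of these letters.
Oas1a: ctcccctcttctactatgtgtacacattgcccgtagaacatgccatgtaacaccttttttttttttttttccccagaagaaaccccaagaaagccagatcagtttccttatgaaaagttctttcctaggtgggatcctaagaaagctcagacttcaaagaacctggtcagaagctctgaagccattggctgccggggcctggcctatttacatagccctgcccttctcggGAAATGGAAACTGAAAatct
Oasl2: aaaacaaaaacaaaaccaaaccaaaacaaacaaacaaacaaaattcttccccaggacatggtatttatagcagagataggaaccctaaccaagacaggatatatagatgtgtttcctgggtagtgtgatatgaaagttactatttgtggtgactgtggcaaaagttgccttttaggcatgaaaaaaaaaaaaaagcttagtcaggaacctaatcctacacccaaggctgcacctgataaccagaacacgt
Trim30a: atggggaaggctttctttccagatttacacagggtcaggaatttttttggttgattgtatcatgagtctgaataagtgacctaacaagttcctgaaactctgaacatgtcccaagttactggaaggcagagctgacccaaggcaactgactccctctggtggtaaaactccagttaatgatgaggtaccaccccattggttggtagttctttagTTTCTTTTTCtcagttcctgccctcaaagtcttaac

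The neighbours Ifit3 and Ifit3b share a run of 169 bases of this promoter, and the stretch with both of their element copies is shown because it shows how alike these genes are. The windows are chr19:34583363-34583426 for Ifit3 and chr19:34607759-34607822 for Ifit3b, both on the plus strand, with capitals as above. Array probes to such close copies may detect both transcripts, so the separate values of Ifit3 and Ifit3b are uncertain.
Ifit3: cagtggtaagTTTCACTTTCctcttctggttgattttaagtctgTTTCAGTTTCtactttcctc
Ifit3b: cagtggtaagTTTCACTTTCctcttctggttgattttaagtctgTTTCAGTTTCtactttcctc

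Values are log2 signals, so a difference of 1 is a 2-fold change. Differences were tested with limma over all 19505 genes, and called means a Benjamini-Hochberg adjusted p under 0.05. Olfm2 had 3.36 to 3.72 on the g KO arrays against 4.08 to 4.60 on the g WT arrays, and 2.67 to 3.58 on the sc KO arrays against 4.28 to 5.25 on the sc WT arrays. All of these except 3 sc WT values lie under the median of the negative-control probes (4.65), so they give a direction and no size. It was lower in knockout samples of both depots (adjusted p = 0.00784 in g and 0.000152 in sc), with an exact two-sided permutation p of 0.00794 in each, the smallest that 5 arrays against 5 allow. The mean of 12 adipocyte markers lay between 10.78 and 11.72 on every array. Other cell types left a signal too, although the labels call the cells adipocytes. The mean of 14 T and B cell markers was 8.23 on sc286WT, 8.56 on sc317KO and 8.31 on sc320KO, against 5.14 to 6.85 on the other arrays. The mean of 10 hepatocyte markers lay between 8.23 and 10.86 on 8 arrays, of which 4 were g KO, 2 g WT and 2 sc KO, and at most 6.67 elsewhere. The mean of 7 skeletal muscle markers was 11.2 on sc286WT, 9.35 on sc307WT, 8.04 on sc317KO and 7.51 on sc320KO, against 4.83 to 5.93 elsewhere. Macrophage markers (11 measured) averaged 8.71 to 9.24 on g KO arrays, 9.40 to 9.82 on g WT arrays, 8.07 to 8.75 on sc KO arrays and 8.39 to 8.66 on sc WT arrays. In such bulk samples, fewer cells of a type and less RNA per cell cannot be told apart.

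Before any comparison, single arrays stood out. Here and below, knockout values run over g300 KO, g306 KO, g317 KO, then g318 KO and last g320 KO, wild-type values over g286 WT, g287 WT, g307 WT, g308 WT and g309 WT, and over the sc arrays of the same numbers. The mean over the 32 genes was 6.79, 6.998, 6.86, 6.90 and 6.78 on the g KO arrays, and 6.75, 6.89, 6.86, 6.80 and 7.21 on the g WT arrays. On the sc KO arrays it was 6.79, 6.81, 7.16, 6.84 and 6.97, and on the sc WT arrays it was 6.70, 7.01, 6.86, 6.84 and 6.97. The group means, 6.87 ± 0.09 in g KO, 6.90 ± 0.18 in g WT, 6.91 ± 0.16 in sc KO and 6.88 ± 0.12 in sc WT (SD, n = 5 each), differed by less than the spread within a group. The array g309 WT was highest in its group for 25 of the 32 genes (78.1%), compared with 18.6% of all genes. The array sc317KO was highest in its group for 21 of the 32 (65.6%), compared with 20.4% of all genes, and sc286WT was lowest in its group for 15 of the 32, compared with 34.3% of all genes.

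The high array g309 WT was marked most by the guanylate-binding proteins, interferon-inducible GTPases that attack intracellular pathogens. Gbp2 had 8.08, 8.71, 8.41 and 8.37 on g286 WT to g308 WT, and 9.78 on g309 WT. Gbp3 had 7.01 to 7.48 on those other g WT arrays and 8.51 on g309 WT. Gbp7 had 8.12 to 8.53 there and 9.17 on g309 WT. Genes of the interferon-gamma response moved with them on this array: 17 of 20 were highest there within g WT, with a list mean of 8.08 against 7.01 to 7.28 on the other g WT arrays. Ifng itself, the type II interferon, had 5.09 on g309 WT and 3.69 to 4.21 on the others, values under the negative-control median. Markers of neutrophils averaged 6.47 there, against 4.91 to 5.23 on the other g WT arrays, with 6 of 7 genes highest. Of these 7 genes, Mmp8 and Ngp lay under the negative-control median on every g WT array. All 7 T cell markers were also highest there, with a mean of 6.88 against 5.69 to 6.27. The means of B cell (6.82), macrophage (9.82), conventional dendritic cell (6.23) and NK cell markers (5.02) were highest there too. Those of plasmacytoid dendritic cell and mast cell markers were not. The array sc317KO carried the lymphocyte and muscle signals named above, and all 7 T cell and 7 B cell markers were highest there within sc KO. The part of these cell signals in the level of the interferon-stimulated genes was not tested.

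**Figure D1:**
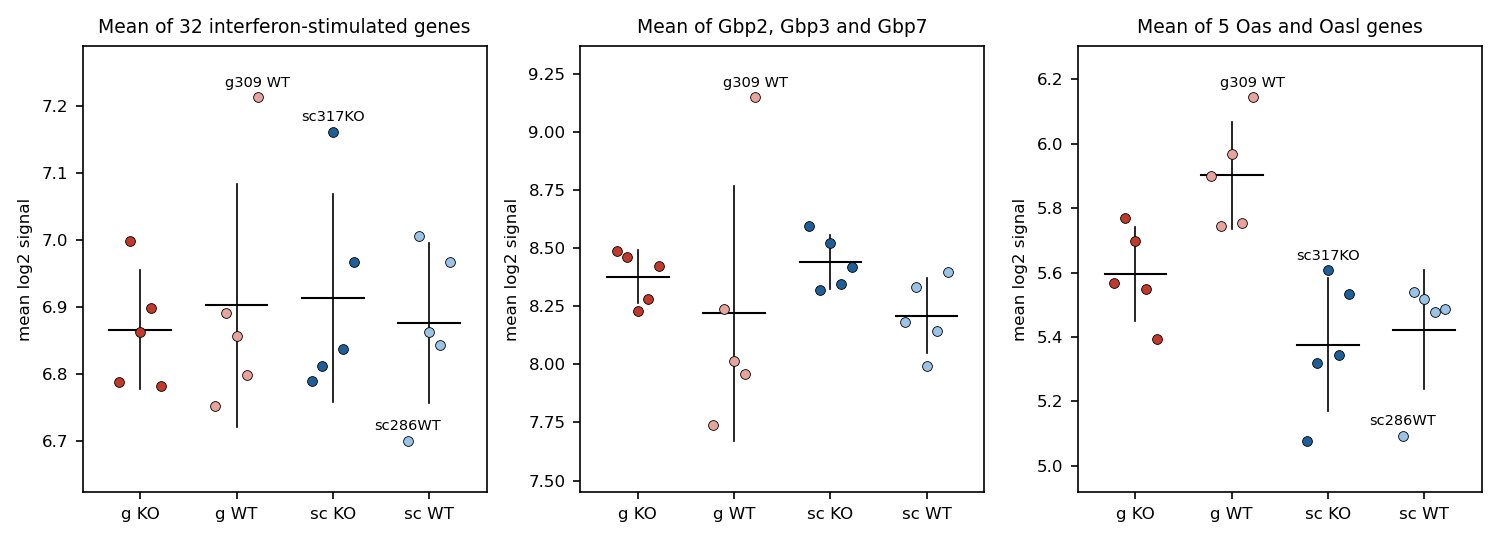
Mean log2 signal per array (y axis) of all 32 measured genes, of Gbp2, Gbp3 and Gbp7, and of the 5 Oas and Oasl genes, for the groups g KO, g WT, sc KO and sc WT. Points are arrays, horizontal bars the mean and vertical bars the SD (n = 5). The array g309 WT sits at 7.21, 9.15 and 6.15, above every other array of its group, and g KO and g WT differ most in the Oas panel.

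Within the groups the genes went up and down together only in part. Over the 20 arrays, as deviations from the group mean, the 496 pairs of members had a median correlation of 0.27 (mean 0.27, range -0.63 to 0.94), and 89 pairs exceeded 0.5. The mean over all pairs of genes was 0.0046. These are descriptions, since the pairs share arrays and the cell mixture of each sample. Ifit3 and Ifit3b had the highest correlation at 0.94, with the caution above. Ifit3 with Oasl2 reached 0.85, Gbp2 with Gbp3 0.84 and Irf9 with Mx1 0.82. The lowest was -0.63, for Mx1 with Rsad2.

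**Figure D2:**
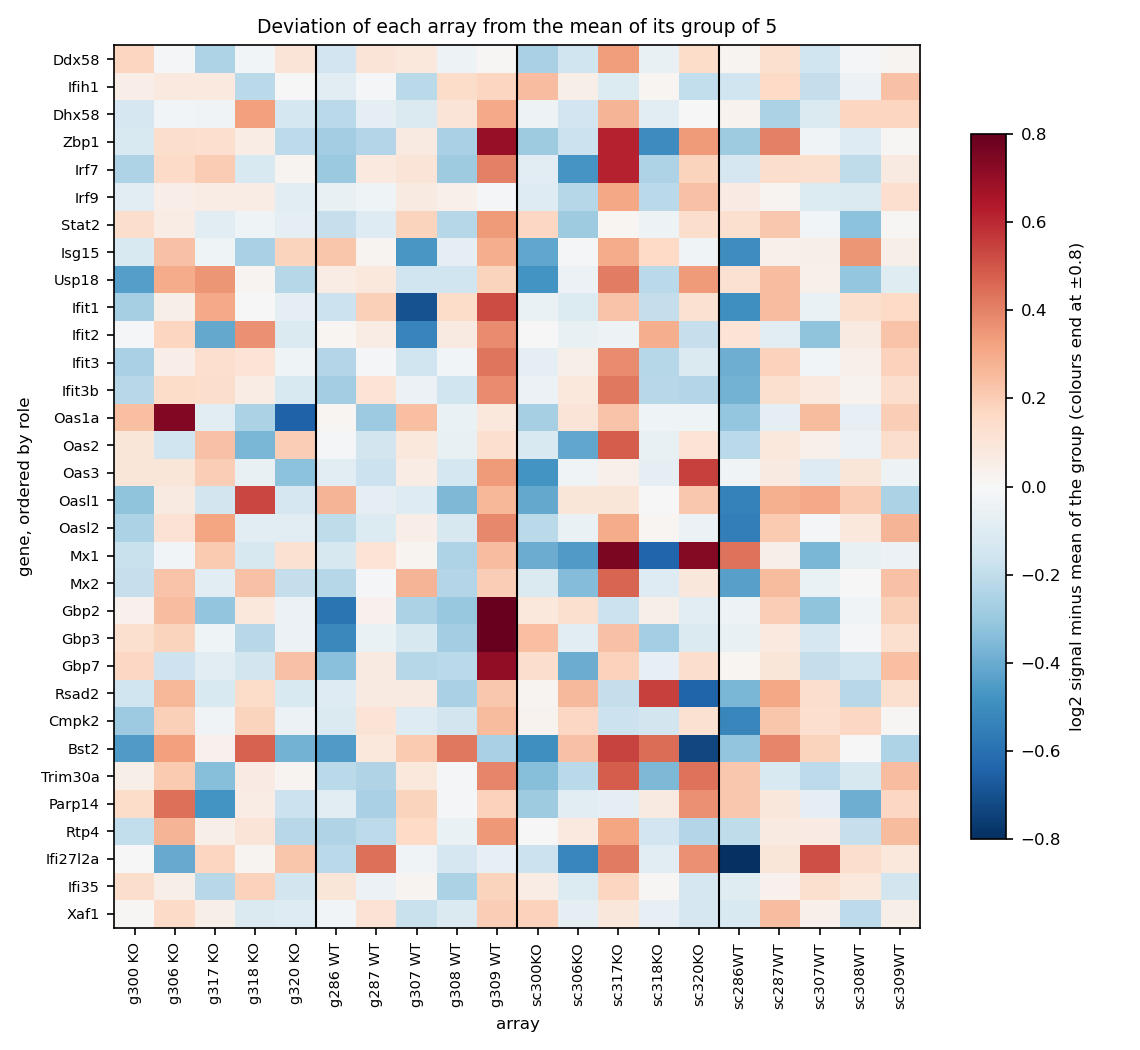
Log2 signal of each gene (rows, ordered by role) on each array (columns, by group) minus the mean of that group of 5, in colour with the scale ending at 0.8 either way. The column of g309 WT is red for most genes and deepest for Gbp2 and Gbp3, and in sc KO the column of sc317KO is red for most genes.

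In the g depot, knockout samples were compared with wild-type samples. Only a few genes passed. Oas1a, an oligoadenylate synthetase whose product activates RNase L against viral RNA, fell, and so did the related Oasl2. Ifi27l2a, a small interferon-induced membrane protein, rose. So 3 of 32 members (1 higher, 2 lower) were called, against 11.3% of all genes, 5.01% higher and 6.27% lower, so that the share is near the background. The median difference was -0.04, beside 0.02 over all genes.

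Oas1a belongs to a cluster of similar Oas1 genes whose transcripts an array probe may also detect, so its own value is uncertain. Oas1a had 6.01, 6.51, 5.68, 5.51 and 5.12 on the g KO arrays, against 6.45, 6.14, 6.67, 6.38 and 6.52 on the g WT arrays. The g KO values spread widely (5.76 ± 0.52 against 6.43 ± 0.20, SD, n = 5 each), and g306 KO lay inside the wild-type range. The difference was -0.67 (SE 0.187, adjusted p = 0.0245). Oasl2 had 7.05, 7.42, 7.62, 7.22 and 7.22 on the g KO arrays, against 7.58, 7.68, 7.84, 7.66 and 8.17 on the g WT arrays. Only g317 KO reached into the wild-type range, and the difference was -0.48 (SE 0.151, adjusted p = 0.0425). Ifi27l2a had 10.33, 9.94, 10.51, 10.36 and 10.56 on the g KO arrays, against 9.44, 10.10, 9.63, 9.52 and 9.59 on the g WT arrays. The groups overlapped through g306 KO and g287 WT alone, and the difference was 0.69 (SE 0.213, adjusted p = 0.0418).

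The other Oas and Oasl genes were not called: Oas2 at -0.04, Oas3 at -0.06 and Oasl1 at -0.28, of which Oas3 and Oasl1 have a mean below the negative-control median. Without g309 WT, Oas2 was at -0.01, Oas3 at 0.02 and Oasl1 at -0.21. The IFIT genes, whose proteins bind viral RNA, were all 4 above 0 and none was called. Ifit3 was at 0.36 (adjusted p = 0.108), Ifit3b at 0.31, Ifit2 at 0.20 and Ifit1 at 0.19. The guanylate-binding proteins Gbp2, Gbp3 and Gbp7 were at 0.03, 0.21 and 0.23, and without the single array g309 WT at 0.31, 0.45 and 0.41. Among the sensors, Dhx58 (LGP2, a regulator of RIG-I and MDA5) was at -0.30 (adjusted p = 0.114), Zbp1 at -0.27, Ddx58 at -0.05 and Ifih1 at 0.14. The ISGF3 subunits Irf9 and Stat2 were at -0.17 and -0.19 and Irf7, the factor that amplifies interferon production, at 0.17. Isg15, a ubiquitin-like modifier, and Usp18, which removes it, were at 0.09 and 0.03. Mx1, an antiviral GTPase whose g KO values lie near background, was at -0.48 (adjusted p = 0.199) and Mx2 at -0.12. Of the effectors, Trim30a, which damps Toll-like receptor signalling, was at -0.41 (adjusted p = 0.143), and Rsad2 (viperin), Cmpk2, Bst2 (tetherin), Parp14 and Rtp4 lay between -0.21 and 0.20. Ifi35 and Xaf1 were at 0.09 and 0.04. For 30 of the 32 genes the 95% interval excluded a change of 2-fold or more, and for 21 a change of 1.5-fold or more.

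Not one array overlapped between genotypes for Irf9 and Mx1, 2 of 32 members, where 10.4% of all genes had no overlap. Irf9 had 7.68, 7.83, 7.84, 7.84 and 7.69 on the g KO arrays, against 7.89, 7.91, 8.02, 7.99 and 7.93 on the g WT arrays. Mx1 had 4.35, 4.51, 4.74, 4.40 and 4.65 on the g KO arrays, against 4.88, 5.12, 5.03, 4.77 and 5.26 on the g WT arrays. Its g KO mean of 4.53 lies under the negative-control median (4.65), so the size of its difference is uncertain. Neither Irf9 nor Mx1 passed. The fit shares its estimate of spread with the sc groups, in which Mx1 ran from 4.26 to 5.64 and Irf9 from 7.47 to 8.004. In a fit of the 2 g groups alone Mx1 was called and Irf9 was not.

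These calls rest on few arrays and shift with the processing. Quantile normalisation and median centring each left Oasl2 uncalled, array weights left Oas1a uncalled, and a fit of the 2 g groups alone called Mx1 (lower) in place of Oas1a. Leaving out 1 sc array left 2 or 3 members called, without Oasl2 or Ifi27l2a where it was 2. Without g307 WT or without g320 KO 0 of the 32 genes were called, and without g300 KO, g317 KO or g318 KO 1 was called (Oas1a, Oasl2 and Dhx58 in turn, Dhx58 being lower). Without g309 WT the called genes were Ifit3 (0.46, adjusted p = 0.0347) and Gbp3 (0.45, adjusted p = 0.0283), both higher in g KO, and Oas1a was at -0.65 (adjusted p = 0.0584), Oasl2 at -0.39 and Ifi27l2a at 0.67. The median over the members was then 0.02. Without the 3 lymphocyte-rich sc arrays, which enter only through the shared spread, 6 were called: Ifit3 and Ifi27l2a higher, and Oas1a, Oasl2, Mx1 and Trim30a lower. Cell markers moved with genotype in g as well: 8 of 11 macrophage markers were lower and 1 higher in g KO, 8 of 12 adipocyte markers were higher, and 5 of 5 mast cell markers were lower. With the macrophage marker mean as a covariate 0 of the 32 genes were called, and with the hepatocyte marker mean 0. Ifi27l2a was then at 0.86 and 0.76, Oas1a at -0.16 and -0.58, and Oasl2 at -0.22 and -0.47, with the macrophage covariate given first for each gene. The macrophage means of g KO and g WT arrays do not overlap, so that this signal and the genotype cannot be told apart.

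**Figure D3:**
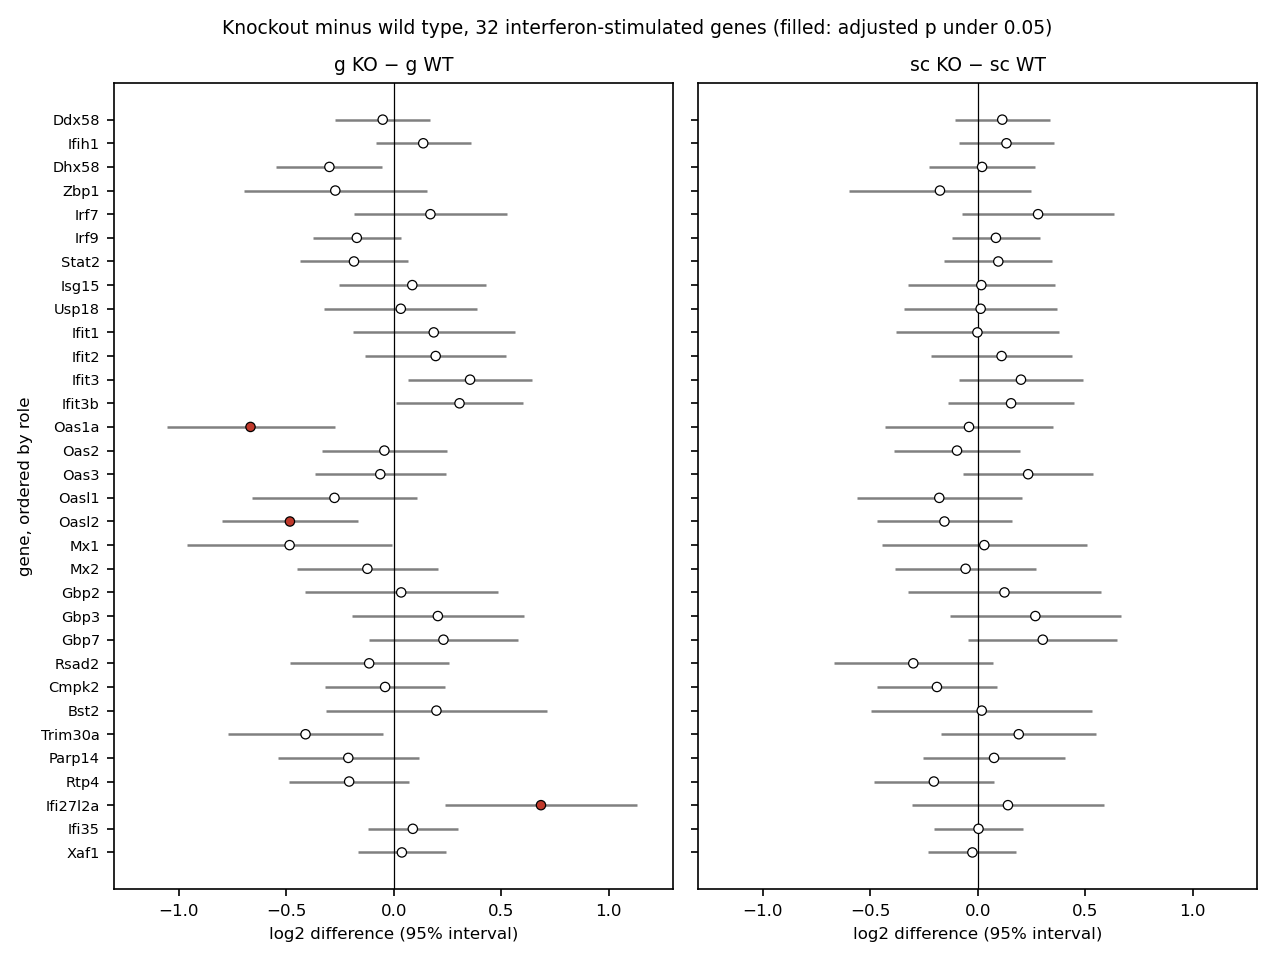
Log2 difference of knockout minus wild type (x axis) with its 95% interval for each of the 32 genes (rows, ordered by role), in g on the left and in sc on the right. Filled points were called. In g, Oas1a and Oasl2 lie at -0.67 and -0.48 and Ifi27l2a at 0.69, whereas no point in sc is filled.

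In the sc depot no member passed in the same comparison. Of the 32 genes 0 were called by limma, beside 0.677% of all genes called. The differences ran from -0.30 (Rsad2) to 0.30 (Gbp7), with a median of 0.03 beside 0.01 over all genes, and the smallest adjusted p was 0.559. The 95% intervals of all 32 genes excluded a change of 2-fold or more, and those of 26 genes a change of 1.5-fold or more. No member had separate genotypes (2.94% of all genes did). Oas1a had 5.48, 5.85, 5.97, 5.71 and 5.71 on the sc KO arrays, against 5.47, 5.71, 6.04, 5.72 and 5.98 on the sc WT arrays. Oasl2 had 6.74, 6.91, 7.26, 6.97 and 6.91 on the sc KO arrays, against 6.56, 7.32, 7.10, 7.20 and 7.39 on the sc WT arrays. Ifi27l2a had 10.65, 10.30, 11.24, 10.73 and 11.19 on the sc KO arrays, against 9.85, 10.77, 11.19, 10.82 and 10.76 on the sc WT arrays. For Oas1a and Ifi27l2a the sc groups overlapped widely. For Oasl2 they overlapped through sc286WT, at 6.56, and sc317KO, at 7.26, alone, and the other sc KO arrays lay below the other sc WT arrays.

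Whether the knockout effect differed between depots was tested as an interaction, and 0 of the 32 genes were called (0.0769% of all genes were). For Oas1a the effect in g minus that in sc was -0.63 (adjusted p = 0.329), and for Trim30a it was -0.60 (adjusted p = 0.311). The median over the members was -0.06, and without g309 WT it was 0.08. The estimate is less precise here, and a difference of 2-fold or more lay outside the 95% interval for 28 of 32 genes, one of 1.5-fold or more for 15.

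The depots themselves differed in more of these genes. In wild-type samples, g against sc, 9 of 32 were called, 6 higher and 3 lower, beside 17.8% of all genes (9.3% higher, 8.48% lower). The genes higher in g WT came from several roles: the sensor regulator Dhx58, the ISGF3 subunit Irf9, the synthetase family members Oas1a and Oasl2, and Trim30a, with Oas3 called on values at background. The genes lower in g WT were Ifi27l2a, Ifi35 (a cytoplasmic regulator of innate signalling) and Xaf1 (a pro-apoptotic partner of XIAP). The median over the members was 0.01, beside -0.04 over all genes. This comparison uses the same g WT arrays as that of g KO with g WT, so that their values are not independent of each other.

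Trim30a had 7.52, 7.49, 7.82, 7.72 and 8.13 on the g WT arrays, against 7.27, 6.94, 6.85, 6.93 and 7.31 on the sc WT arrays, a difference of 0.68 (SE 0.173, adjusted p = 0.00899) with no overlap. Oasl2, whose values are above, was higher by 0.67 (SE 0.151, adjusted p = 0.00343) and Oas1a by 0.65 (SE 0.187, adjusted p = 0.0196), also with no overlap. Oas3 had 4.57, 4.48, 4.71, 4.51 and 4.99 on the g WT arrays, against 4.17, 4.27, 4.09, 4.29 and 4.16 on the sc WT arrays. All of its sc WT values and 3 of its 5 g WT values lie under the negative-control median, so the call (adjusted p = 0.0331) compares values at background and its size is not given. Dhx58 had 6.19, 6.34, 6.29, 6.51 and 6.71 on the g WT arrays, against 6.03, 5.75, 5.88, 6.17 and 6.17 on the sc WT arrays, a difference of 0.41 (adjusted p = 0.0209). Irf9 had 7.68, 7.63, 7.50, 7.49 and 7.74 on the sc WT arrays, all below its g WT values, and differed by 0.34 (adjusted p = 0.0200). All 5 Oas and Oasl genes were above 0.

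On the lower side, Ifi27l2a differed by -1.02 (SE 0.213, adjusted p = 0.00191), the largest difference among the members in this comparison. The groups overlapped only because sc286WT, at 9.85, lay below g287 WT, at 10.10. Ifi35 had 7.61, 7.47, 7.53, 7.26 and 7.69 on the g WT arrays, against 7.80, 7.93, 8.03, 7.98 and 7.75 on the sc WT arrays, a difference of -0.38 (adjusted p = 0.00987) with no overlap. Xaf1 had 7.42, 7.56, 7.27, 7.33 and 7.64 on the g WT arrays, against 7.61, 7.98, 7.78, 7.53 and 7.78 on the sc WT arrays, a difference of -0.29 (adjusted p = 0.0451) with overlap. Just outside the threshold, Usp18 was at -0.49 (adjusted p = 0.0534), and Ifit3b and Ifit3 were at -0.36 and -0.34 (adjusted p = 0.0847 and 0.0958). The groups did not overlap for 7 of the 32 genes (Dhx58, Irf9, Oas1a, Oas3, Oasl2, Trim30a and Ifi35), where 16.1% of all genes had no overlap. Macrophage markers stood higher in g WT as well, 9 of 11 called, and with their mean as a covariate 0 of the 32 genes were called. Ifi27l2a was then at -1.32, Ifi35 at -0.86, Xaf1 at -0.30 and Oasl2 at 0.23, whereas Oas1a, Trim30a, Dhx58 and Irf9 were below 0. The macrophage means of g WT and sc WT arrays do not overlap, so that this signal and the depot cannot be told apart. Without g307 WT or without sc307WT 5 were called. Without g309 WT 9 were called, with Ifit3 and Ifit3b (lower) in place of Dhx58 and Oas3.

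**Figure D4:**
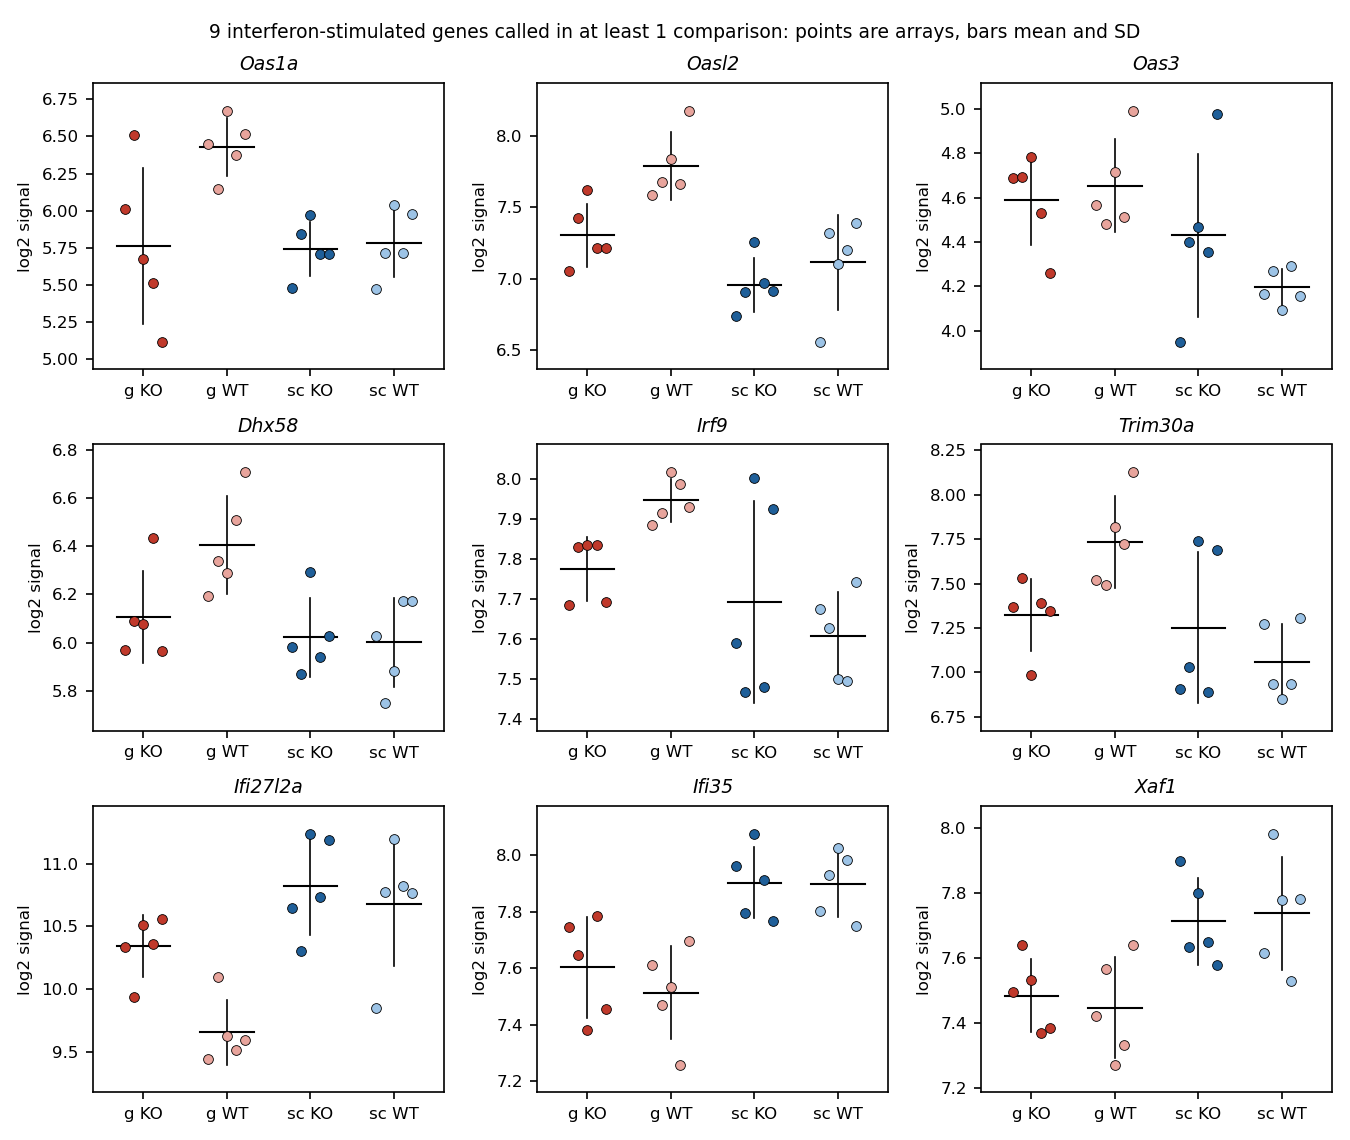
Log2 signal (y axis) of the 9 genes called in at least 1 comparison, by group: points are arrays, horizontal bars the mean and vertical bars the SD (n = 5). The g WT points of Oas1a, Oasl2 and Trim30a stand above all sc WT points, and for Ifi27l2a g KO (10.34) lies between g WT (9.66) and the sc groups (10.82 in sc KO, 10.68 in sc WT).

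Between the knockout groups the depots were less apart. In g KO against sc KO 0 of the 32 genes were called, beside 4.13% of all genes, and 0 had no overlap, beside 4.26% of all genes. Ifi35 was at -0.30 (adjusted p = 0.105), Usp18 at -0.47 (adjusted p = 0.144), Xaf1 at -0.23 (adjusted p = 0.228), Oasl2 at 0.35 (adjusted p = 0.239) and Ifi27l2a at -0.48 (adjusted p = 0.247). Oas1a and Trim30a were at 0.02 and 0.07. The median was -0.07, beside -0.02 over all genes. Macrophage markers were higher in g KO here too, 8 of 11 called. The difference between the depot comparisons of the genotypes is the interaction above, in which 0 of the 32 passed.

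The rest of the interferon pathway was read from lists of ligands, receptors, JAK-STAT components, interferon regulatory factors, nucleic acid sensors, further interferon-stimulated genes and interferon-gamma targets, 137 measured genes in all. In g KO against g WT 24 of the 137 were called, 2 higher and 22 lower (17.5%, beside the 11.3% of all genes), with a median of -0.17. The receptors gave 3 of 6, all lower: Il10rb, a chain shared by the interleukin 10 and type III interferon receptors, at -0.49 (adjusted p = 0.00246), Ifnar1, a chain of the type I receptor, at -0.44 (adjusted p = 0.00297), and Ifngr2, a chain of the type II receptor, at -0.55 (adjusted p = 0.0208). Sensing genes gave 7 of 17, all lower. Tlr7, an endosomal receptor for single-stranded RNA, was at -1.25 (adjusted p = 0.000584), and Unc93b1, which escorts such receptors to the endosome, at -0.79 (adjusted p = 0.000761). Their adaptor Myd88 was at -0.60 and the ubiquitin ligase Trim25 at -0.63. The cytokine signalling inhibitor Socs3 (-0.52) and the STAT inhibitor Pias1 (-0.36) were the 2 of 9 JAK-STAT genes called, and Irf5 (-0.55) and Irf8 (-0.64) the 2 of 6 regulatory factors.

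The 60 further interferon-stimulated genes gave 2 higher and 8 lower in the same comparison. Isg20, an exonuclease that degrades RNA, was higher by 0.56 (adjusted p = 0.00224), and Apol9b, named for being the other of the 2 and chosen after its value was seen, by 0.62 (adjusted p = 0.0341). Ifi207 and Ifi211, of the DNA-sensing PYHIN family, were at -0.76 and -0.65, and Ms4a6d at -1.48. Ligands gave 0 of 18 and interferon-gamma targets 0 of 20, and Ifng was not called (-0.15, adjusted p = 0.706). By limma, sc KO against sc WT gave 0 of 137, beside 0.677% of all genes, and the interaction 0 of 137, beside 0.0769% of all genes. The macrophage marker difference stated above accompanies these genes too. Adding the macrophage mean to the fit of g KO against g WT left 0 of the 137 called, and 19 of all genes. Socs3 was then at -0.51, Myd88 at -0.42, Tlr7 at -0.37 and Unc93b1 at -0.26.

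In wild-type samples, g against sc, 30 of the 137 were called, 29 higher and 1 lower (21.9%, beside the 17.8% of all genes), with a median of 0.11. Sensing genes gave 11 of 17, all higher, among them Tlr7 (1.74, adjusted p = 6.48e-06), Unc93b1 (1.26), the kinase Ikbke (1.12) and Myd88 (0.74). The receptors Il10rb (0.90), Ifngr2 (0.47) and Ifnar1 (0.37), the JAK-STAT genes Ptpn6 (1.48), Pias1 (0.53) and Socs3 (0.39), Irf5 (0.59) and Irgm1 (0.47) were higher too. Of the further interferon-stimulated genes, 10 of 60 were higher, with Ms4a6d (2.09), Ifi207 (1.31), Ifi211 (1.01) and Ifi204 (0.69) among them, and 1 lower, Parp10 (-0.31, named as the single gene in that direction). In g KO against sc KO 10 of 137 were called, beside 4.13% of all genes. Of these, 8 were higher and 2 lower, Ifnb1 (-0.42) and Parp10 (-0.37). Tlr7 (0.98), Unc93b1 (0.57), Ms4a6d (1.47), Ifi207 (0.93), Ifi211 (0.75) and Isg20 (0.59) were among those higher. Ifnb1 encodes interferon beta, and its mean log2 signal was 4.91 in g KO and 5.33 in sc KO. The negative-control median was 4.65, so the g KO mean lies near background and the size of the difference is uncertain. Its call was lost under 7 of the 33 alternative analyses described below.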

How the data were processed

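RMA and limma are named in the submitters' processing notes, and what the authors deposited are log2 signals, 1 per probe and array. Tool versions, and which arrays entered RMA together, were not stated. Per the labels, 100 ng of total RNA per sample was labelled with the GeneChip WT PLUS kit. Of 28846 probes, 6640 controls and 2634 without a gene symbol were left out, and 19505 genes remained. All 32 members matched a RefSeq table (GRCm38.p6) by Entrez identifier. Promoter sequences come from RefSeq, same build. The build of the array annotation was not stated.

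Comparisons used limma 3.58.1 (R 4.3.3) and a fit of 4 group means (16 residual degrees of freedom), with moderated two-sided p-values adjusted over 19505 genes. There were 5 comparisons. SE is the moderated one. Precision is limited by the number of arrays. Members, lists and named-gene rules were chosen with earlier results of these data known. Every member may be named. Per-array values are given for called members and those with an array apart in its group, and for Irf9 and Mx1. From each pathway list at most the 4 called genes with the smallest adjusted p are named per comparison, except where a count of 1 or 2 genes in a direction is spelled out and where the closing section names called genes whose sign turned. Alternatives covered probe choice, normalisation, array weights, moderation, a replicate block, marker covariates and left-out arrays.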

Additional observations from a re-analysis of the deposited data

Results flagged for a closer look

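The highest or lowest array was compared with the rest in 132 sets of 5 arrays. These were each member, and the mean over the 32 genes, in each group. By Dixon's ratio at its 95% limit (0.710 for 5 values) 5 stood apart, none of them for the mean. Chance flags about 1 in 20 such sets. Ifih1 was lowest on g318 KO at 8.185, with the other g KO arrays between 8.400 and 8.479. Dhx58 was highest on the same array at 6.435, with the others between 5.965 and 6.088. Ifit3b was lowest on sc286WT at 7.282, with the other sc WT arrays between 7.688 and 7.799, and Cmpk2 was lowest there too, at 6.307 against 6.837 to 7.050. Ifi27l2a was highest on g287 WT at 10.096, with the other g WT arrays between 9.442 and 9.630. No test of a cause was run for these values.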

How the results depend on the processing

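Each result was recomputed under 33 alternatives, or 32 for the interaction, which cannot be had from 2 groups alone, and 32 for Olfm2, which the filter on dim probes leaves out together with Oas3 and Oasl1. In sc KO against sc WT 0 members were called under all 33, and the median stayed between -0.06 and 0.13. In the interaction 0 were called under all 32. In g KO against g WT leaving out 1 array gave 0 to 3 calls. The macrophage covariate, the hepatocyte covariate and leaving out the 8 hepatocyte-rich arrays gave 0 each, and leaving out the 3 lymphocyte-rich arrays gave 6. The member median was 0.20 with the macrophage covariate and -0.20 without the hepatocyte-rich arrays, which leaves 1 g KO array, whose variance is taken from the other groups. Olfm2 in g was at -0.78 (adjusted p = 0.436) and -0.85 (adjusted p = 0.383) under these. In the interaction the median was 0.17 with the macrophage covariate, -0.30 without the hepatocyte-rich arrays, and -0.13 to 0.080 when 1 array was left out. In g WT against sc WT leaving out 1 array gave 5 to 11 calls, the macrophage covariate 0 and leaving out the hepatocyte-rich arrays 4, and the macrophage covariate moved the median to -0.34. The macrophage covariate called 1 member (Ifi35) in g KO against sc KO and moved the median to -0.29. With the macrophage covariate these differences of g WT against sc WT changed sign: Dhx58 -0.14, Irf9 -0.010, Oas1a -0.19, Trim30a -0.29, Ifnar1 -0.083, Ifngr2 -0.31, Ptpn6 -0.82, Sting1 -0.33, Tlr9 -0.50, Samhd1 -0.25, Aim2 -0.49, Slfn2 -1.14, Ifi204 -0.063, Oas1g -0.018, Trim30d -0.43 and Irgm1 -0.0032. Ifi204 also turned in g KO against g WT (0.017) and in g KO against sc KO (-0.0073). In wild type the macrophage means of the depots do not overlap, so this covariate cannot separate the macrophage signal from the depot. The cause was not tested. Over all genes the macrophage covariate left 19, 0, 3 and 250 calls in g KO against g WT, the interaction, g WT against sc WT and g KO against sc KO. Where leaving out 1 array moved a count over all genes by more than 1.5 times, it gave down to 60 calls in sc KO against sc WT (132 with all arrays), 4 to 41 in the interaction (15), 1425 in g KO against g WT (2200) and 530 and 537 in g KO against sc KO (806). Array weights gave 233 in sc KO against sc WT and 30 in the interaction, where the replicate block gave 32. Own groups alone gave 311 in g KO against sc KO, and leaving out the hepatocyte-rich arrays 118. In g KO against g WT there were 1100 with the hepatocyte covariate, 43 without the hepatocyte-rich arrays and 2948 without the lymphocyte-rich ones. The labels do not say whether equal title numbers mark samples of the same animal. Residuals of same-numbered g and sc arrays correlated between -0.46 and 0.14 (median 0.011), over 0.1 in 2 of 10, and 3 of 10 matched their own number best. The cell mixture of each sample also enters these residuals, so they cannot decide whether the samples are paired. With the number as a replicate block (correlation 0.0863) 3 members were called in g KO against g WT, 10 in g WT against sc WT and 0 in the other comparisons.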
